A study of Mus musculus with 12 samples.

Results

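The mRNAs of the translation initiation and elongation factors other than eIF4 were followed in #483 T-ALL cells, a clone of mouse T-cell acute lymphoblastic leukaemia of C57BL6 strain. Members were all genes whose single symbol starts with Eif1, Eif2, Eif3, Eif5, Eif6 or Eef, without the Eif2ak kinases, the eEF2 kinase, the eEF2 methyltransferase and pseudogenes. The rule found 41 genes of the 19937 named genes on the array, and 39 of the 41 were among the 13180 genes whose mean log2 value passed a filter at the 40th percentile of all probe sets (6.003). Eef1akmt3, with a mean of 5.90, and Eif2s3y, with a mean of 3.20, fell below it and were not tested. Eif1, Eif2s1, Eif3g, Eif3j1, Eif3j2, Eef1g and Eef1akmt4 were not analysed here. The 4 groups of 3 arrays were polysomal RNA of cells treated with 100 µM 4EGI-1 for 2 h, polysomal RNA of untreated cells, cytoplasmic RNA of cells treated with 100 µM 4EGI-1 for 2 h, and cytoplasmic RNA of untreated cells. 4EGI-1 is a small molecule that binds the cap-binding protein eIF4E and interferes with its binding of eIF4G. The sample labels call the controls untreated, whereas the protocols give DMSO as their treatment, and all polysomes were collected after a wash with cycloheximide, which arrests elongating ribosomes. All arrays come from 1 clone, and the polysome fractions of a gradient were pooled, so heavier and lighter polysomes were not separated.

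Initiation factors bring the small ribosomal subunit with the initiator tRNA to the start codon. eIF1 and eIF1A keep the scanning subunit open, eIF2 carries the initiator tRNA and is recharged with GTP by eIF2B, eIF3 is a large scaffold on the small subunit, eIF5 stimulates GTP hydrolysis by eIF2, and eIF5B joins the large subunit. eEF1A then delivers aminoacyl-tRNAs, the eEF1B complex exchanges its nucleotide, and eEF2 moves the ribosome along the mRNA. The mRNAs of several elongation factors and eIF3 subunits begin with a terminal oligopyrimidine (TOP) tract, a stretch of C and T at the very 5′ end that ties their translation to growth signals.

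The first bases of 7 members are shown because these mRNAs carry the main results: Eif5b, Eif3c, Eif3a, Eef2 and Eif3d were the members higher in polysomal RNA after 4EGI-1, and Eif3f and Eef1a1 were the members called lower in polysomal than in cytoplasmic RNA with and without 4EGI-1, the call of Eef1a1 with 4EGI-1 being lost under several alternatives given below. Each window runs from 10 bases before to 20 bases from the RefSeq transcription start (build GRCm38.p6), 5′ to 3′ on the gene's strand. Capitals mark any run of 6 or more C or T on that strand. The windows lie at chr1:37998000-37998029 (plus strand) for Eif5b, chr7:126566347-126566376 (minus strand) for Eif3c, chr19:60790674-60790703 (minus strand) for Eif3a, chr10:81176621-81176650 (plus strand) for Eef2, chr15:77970805-77970834 (minus strand) for Eif3d, chr7:108934405-108934434 (plus strand) for Eif3f and chr9:78481705-78481734 (minus strand) for Eef1a1.
Eif5b: ctgggttcccacctggccggcggctctact
Eif3c: ctgctcagagggactcggcagcttagctgg
Eif3a: ctcgggcggcggcgctgccgccgcgaggga
Eef2: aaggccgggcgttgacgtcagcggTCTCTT
Eif3d: agggccatttacgacagcgctggtcgccgt
Eif3f: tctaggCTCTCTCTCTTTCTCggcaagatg
Eef1a1: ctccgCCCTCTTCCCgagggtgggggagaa
The windows of Eif3f and Eef1a1 hold a pyrimidine run over their annotated start, that of Eef2 holds a run that reaches the window's end, and those of Eif5b, Eif3c, Eif3a and Eif3d hold none. Of the 32 members with an entry in the RefSeq promoter table, 12 held such a run, and 28.7% of all 32851 promoters did. A run was found in 1 of the 5 members that were higher in polysomal RNA after 4EGI-1 and in 2 of the 6 with an entry that were lower. It was also found in 3 of 7 members that were lower in polysomal than in cytoplasmic RNA of untreated cells and in 4 of the 7 with an entry that were higher. An annotated start can differ from the start used in these cells.

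The values are log2 RMA values, which measure hybridised cDNA relative to the other transcripts of the same array, so neither the total polysomal RNA nor the number of ribosomes per mRNA was measured. In such bulk RNA, fewer cells of a type and less RNA per cell cannot be told apart. Replicate arrays correlated at 0.996 to 0.997 in the polysomal groups and at 0.985 to 0.995 in the cytoplasmic groups. The median SD between replicates over the tested genes was 0.0761 in polysomal RNA of 4EGI-1 cells, 0.0745 in polysomal RNA of untreated cells, 0.121 in cytoplasmic RNA of 4EGI-1 cells and 0.133 in cytoplasmic RNA of untreated cells. The design speaks of biological replicates, and 12 arrays limit the precision of every value. Of 9 T-lineage markers, the 8 on the array passed the filter, with means of 8.04 to 12.1. Means were 4.42 to 6.67 for B-lineage markers (2 of 4 past the filter), 5.28 to 6.74 for myeloid markers (3 of 5) and 6.60 to 8.48 for stroma markers (4 of 4, Pecam1 the highest), and the erythroid marker Klf1 had 6.32. With 4EGI-1, 3 of the 8 T-lineage markers fell in polysomal RNA (median -0.31) and 2 in cytoplasmic RNA (median -0.22). These are 37.5% and 25%, against 12.1% and 7.79% of all genes that were lower. All 8 T-lineage changes were negative in polysomal RNA and 7 of the 8 in cytoplasmic RNA. Among the other markers, Mpo rose by 0.34 ± 0.09 and Pecam1 fell by 0.28 ± 0.08 in cytoplasmic RNA. The part of these markers in the results below was not tested.

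In polysomal RNA, 4EGI-1 changed 12 of the 39 tested members, with 5 higher and 7 lower (limma over all genes, Benjamini-Hochberg adjusted p under 0.05). That is 30.8% of the members, against 25.2% of all genes tested. By direction, 12.8% of the members were higher, against 13.0% of all genes, and 17.9% were lower, against 12.1% of all genes. The members' median change was -0.04 and that of all genes -0.03. The count of changed members was thus close to the background, and the description below concerns which factors they were.

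**Figure D1:**
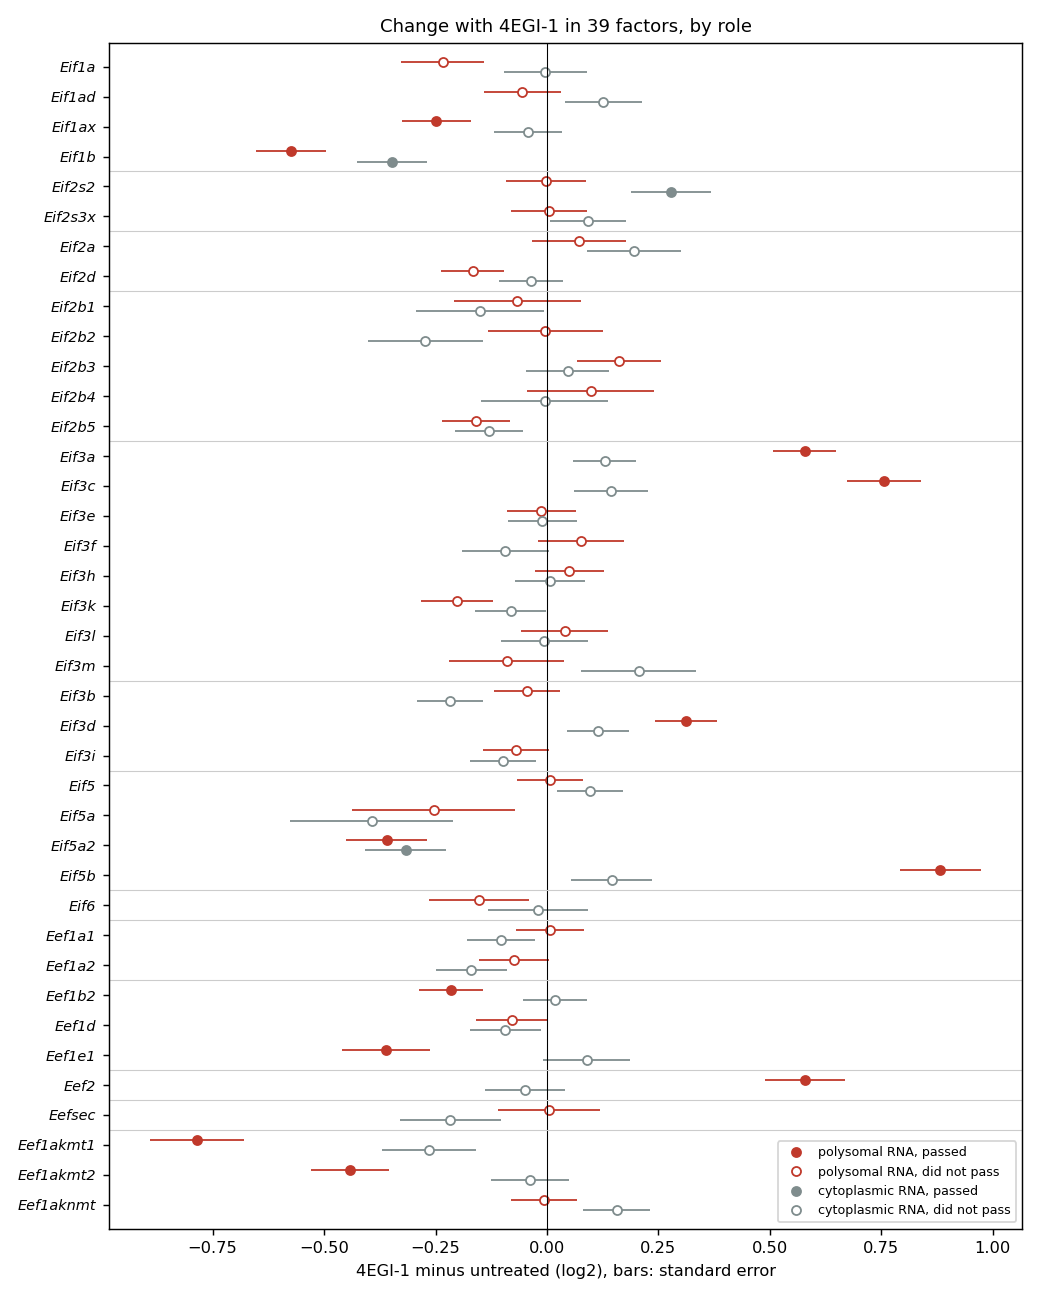
Change with 4EGI-1 on the log2 scale (4EGI-1 minus untreated, horizontal axis) for the 39 tested factors, grouped by role, in polysomal RNA (red) and cytoplasmic RNA (grey). Points are limma estimates over 3 arrays a group, bars are standard errors, and filled points passed the test; Eif5b, Eif3c, Eef2 and Eif3a stand to the right in polysomal RNA and near 0 in cytoplasmic RNA.

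The largest change of any member was that of Eif5b, the GTPase that joins the ribosomal subunits. Its log2 values were 11.04, 10.82 and 10.98 in polysomal RNA of 4EGI-1 cells, against 9.98, 10.13 and 10.08 in polysomal RNA of untreated cells. All treated arrays lay above all untreated ones, by 0.88 ± 0.09 on the log2 scale (SE, n = 3 each), or 1.84-fold (adjusted p = 5.95e-06). Eif3c, a core subunit of eIF3, had values of 11.84, 11.78 and 11.88 in polysomal RNA of 4EGI-1 cells and of 10.93, 11.13 and 11.17 in that of untreated cells. The groups did not overlap, and the difference was 0.76 ± 0.08, or 1.69-fold (adjusted p = 1.08e-05). Eif3a, the largest eIF3 subunit and a core scaffold of the complex, reached 12.39, 12.36 and 12.38 after 4EGI-1, against 11.82, 11.77 and 11.81 in untreated cells. The 3 treated values lay within a few hundredths of each other and above every untreated value, with a difference of 0.58 ± 0.07 (1.49-fold, adjusted p = 2.77e-05). Eef2, which drives translocation, had polysomal values of 12.26, 12.22 and 12.31 in 4EGI-1 cells and of 11.72, 11.62 and 11.71 in untreated cells. It rose by 0.58 ± 0.09 (1.49-fold, adjusted p = 0.000228), again with no overlap. Eif3d, a peripheral eIF3 subunit that can itself contact the mRNA cap, averaged 11.87 ± 0.02 in 4EGI-1 cells and 11.56 ± 0.03 in untreated cells (SD, n = 3 each), a smaller rise of 0.31 ± 0.07 (adjusted p = 0.00392).

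**Figure D2:**
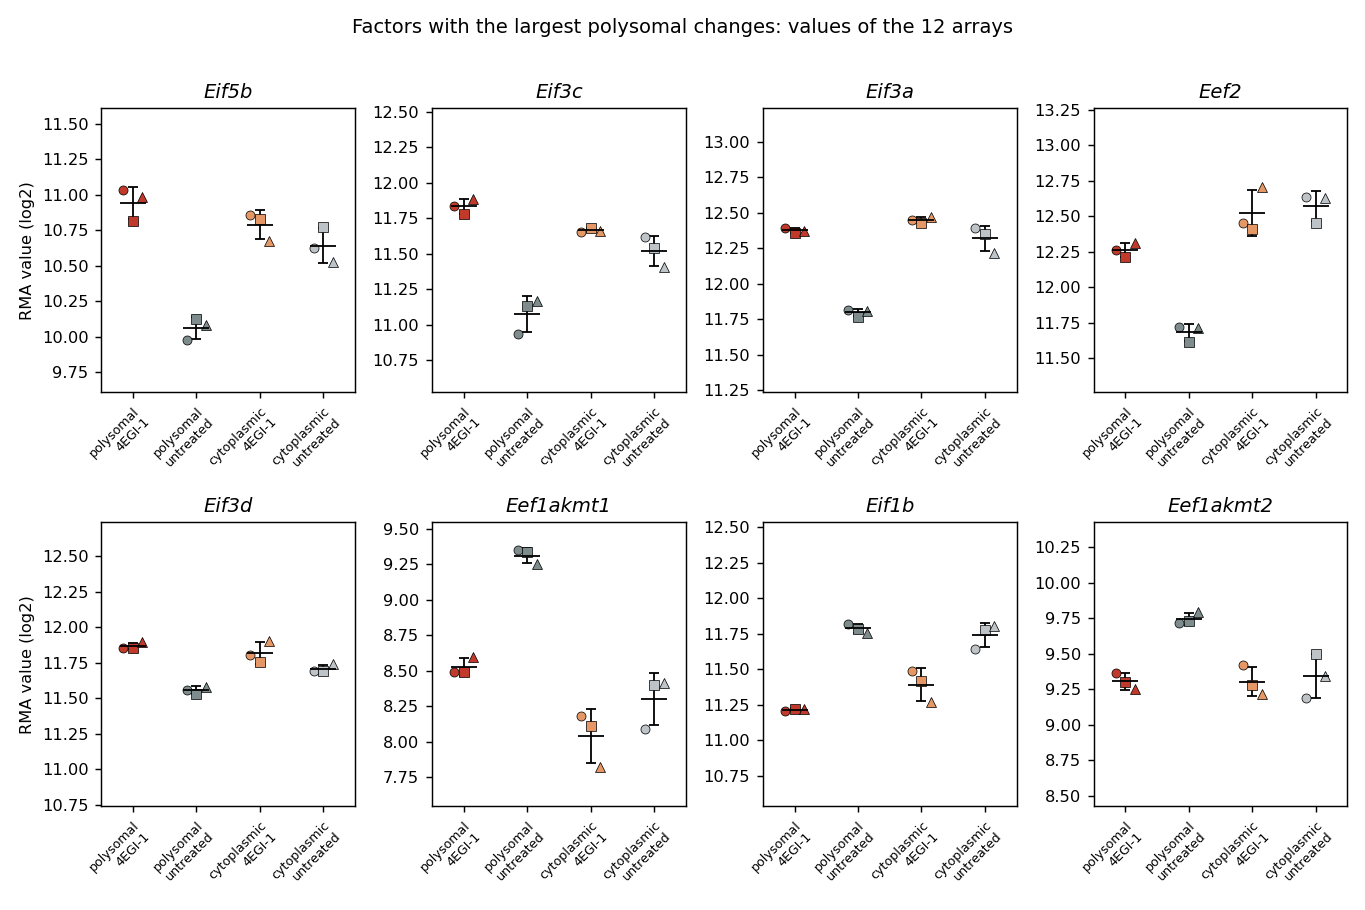
Log2 RMA value (vertical axis, the same span of log2 units in every panel) of 8 factors in the 12 arrays, by fraction and treatment; circles, squares and triangles are arrays 1, 2 and 3, horizontal lines are group means and bars are SD. For Eif5b, Eif3c, Eif3a and Eef2 the polysomal untreated arrays stand below the other 3 groups, and for Eef1akmt1 and Eef1akmt2 they stand above them.

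Within eIF3, 3 of the 11 tested subunits rose in polysomal RNA and none fell. That is 27.3% higher, against 13.0% of all genes, and none lower, against 12.1%. In either direction 25.2% of all genes changed. The subunits did not move as a block. Besides Eif3a and Eif3c, the octamer core held 6 subunits that did not pass, with changes between -0.20 (Eif3k) and 0.08 (Eif3f). Eif3k, a small core subunit that some eukaryotes lack, had values of 10.89 ± 0.02 in 4EGI-1 cells and 11.10 ± 0.08 in untreated cells (SD, n = 3 each, adjusted p = 0.0815). It passed as lower with the 6 polysomal arrays alone (adjusted p = 0.026), with array weights (0.0224) and with an intensity trend (0.0491). Eif3b and Eif3i, which sit together in the peripheral module, differed by -0.04 ± 0.07 and -0.07 ± 0.07. The intervals of Eif3e (-0.18 to 0.15), Eif3h (-0.12 to 0.22) and Eif3l (-0.17 to 0.25) all ended below that of Eif3c (0.58 to 0.93).

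**Figure D3:**
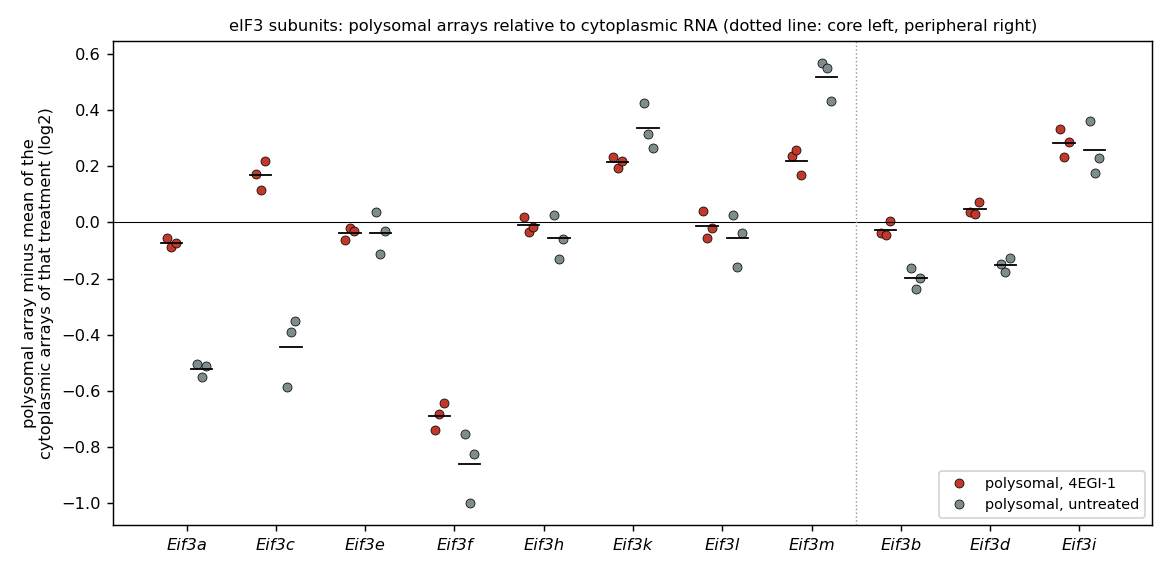
Polysomal log2 values of the 11 tested eIF3 subunits in each array after subtraction of the mean of the cytoplasmic arrays of the same treatment (vertical axis), with 4EGI-1 left of untreated for each subunit. With 4EGI-1, Eif3a is just below 0 (mean -0.07) and Eif3c above 0 (mean 0.17), and both are below 0 without it. Eif3f is below 0 and Eif3i above 0 under either treatment.

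Among the members that were lower in polysomal RNA after 4EGI-1, the lysine methyltransferase gene Eef1akmt1, whose product modifies eEF1A, differed most. Its values were 8.49, 8.49 and 8.60 in 4EGI-1 cells, against 9.35, 9.33 and 9.25 in untreated cells. It fell by 0.78 ± 0.11 on the log2 scale, or 1.72-fold (adjusted p = 6.29e-05), and no array of one group reached the other. Eif1b, a paralog of the start-codon selection factor eIF1, had polysomal values of 11.21, 11.22 and 11.22 in 4EGI-1 cells and of 11.82, 11.79 and 11.76 in untreated cells. It fell by 0.57 ± 0.08 (1.49-fold, adjusted p = 7.72e-05). Eef1akmt2, another eEF1A methyltransferase gene, had 9.37, 9.30 and 9.25 after 4EGI-1, against 9.71, 9.73 and 9.79 in untreated cells, and fell by 0.44 ± 0.09 (adjusted p = 0.00166). Eef1e1 encodes a small eEF1B-related protein of the multi-tRNA-synthetase complex. Its polysomal values were 10.86, 10.81 and 10.73 in 4EGI-1 cells, against 11.09, 11.23 and 11.16 in untreated cells, a fall of 0.36 ± 0.10 (adjusted p = 0.0128). That call was lost when polysomal 4EGI-1 array 3 or polysomal untreated array 2 was left out.

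The other members that fell were Eif5a2, Eif1ax and Eef1b2. Eif5a2, a paralog of the hypusine-carrying factor eIF5A, had 6.87, 6.93 and 6.95 in polysomal RNA of 4EGI-1 cells and 7.27, 7.19 and 7.38 in that of untreated cells, and fell by 0.36 ± 0.09 (adjusted p = 0.00823). This probe set was dim, with a mean of 7.10 over the 12 arrays. That lies within the group means of the stroma marker Col1a1 (6.93 to 7.26), and how much of the signal was background was not tested. Eif1ax, the X-linked eIF1A gene, averaged 11.91 ± 0.02 in 4EGI-1 cells and 12.16 ± 0.03 in untreated cells (SD, n = 3 each, adjusted p = 0.027). Eef1b2, the nucleotide exchange subunit of eEF1B, averaged 12.26 ± 0.04 in 4EGI-1 cells and 12.48 ± 0.07 in untreated cells (adjusted p = 0.0389). The calls of Eif1ax and Eef1b2 were lost when any single polysomal array was left out, and that of Eef1b2 also without cytoplasmic 4EGI-1 array 1. Quantile normalization of all arrays (adjusted p = 0.07 for Eif1ax, and 0.169 for Eef1b2 with a change of -0.14) and the fit with no filter (0.0531 for Eif1ax and 0.075 for Eef1b2) ended both calls as well.

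Roles in which no member passed in polysomal RNA were the eIF2 subunits, eIF2A and eIF2D, eIF2B, eIF6, eEF1A and the selenocysteine elongation factor Eefsec. Of these, Eif2d (-0.17 ± 0.07) passed as lower with the 6 polysomal arrays alone (adjusted p = 0.0383) and with array weights (adjusted p = 0.0207). The eIF2 subunits Eif2s2 and Eif2s3x differed by -0.00 ± 0.09 and 0.00 ± 0.08. The 5 eIF2B subunits ranged between -0.16 (Eif2b5) and 0.16 (Eif2b3). Eif5, the GTPase activator of eIF2, had polysomal values of 11.93, 11.82 and 11.86 in 4EGI-1 cells, against 11.89, 11.85 and 11.85 in untreated cells. Its arrays overlapped, and the interval of its difference ran from -0.15 to 0.17. Eif5a, which promotes peptide bond formation at stalling sequences, had 11.29, 11.21 and 11.08 after 4EGI-1 and 11.48, 11.39 and 11.47 in untreated cells. The Eif5a arrays did not overlap, but the spread shared by the 4 groups is wide and the difference of -0.25 ± 0.18 did not pass (adjusted p = 0.364). Its SD was 0.11 in polysomal RNA of 4EGI-1 cells and 0.05 in that of untreated cells, against 0.41 and 0.38 in cytoplasmic RNA. With the 6 polysomal arrays alone Eif5a passed as lower (adjusted p = 0.0126), and also with array weights (adjusted p = 0.0381). Eif6, which keeps the large subunit from joining too early, had 8.89, 8.86 and 8.92 in 4EGI-1 cells, against 9.17, 9.04 and 8.91 in untreated cells, a difference of -0.15 ± 0.11 that did not pass. Eef1a1, the main eEF1A gene outside muscle and nerve, had 13.10, 13.12 and 13.10 in polysomal RNA of 4EGI-1 cells, against 13.09, 13.08 and 13.13 in that of untreated cells. These 6 values overlapped, with a difference of 0.01 ± 0.08 and an interval of -0.16 to 0.17.

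In cytoplasmic RNA, 4EGI-1 changed 3 of the 39 members, with Eif2s2 higher and Eif1b and Eif5a2 lower. That is 7.69% of the members, against 17.8% of all genes tested, 10.1% of which were higher and 7.79% lower. The members' median change was -0.02, against -0.03 for all genes. Eif1b had cytoplasmic values of 11.49, 11.42 and 11.27 in 4EGI-1 cells and of 11.64, 11.78 and 11.80 in untreated cells, and fell by 0.35 ± 0.08 (adjusted p = 0.00618). Eif5a2 had 7.02, 6.91 and 6.91 in cytoplasmic RNA of 4EGI-1 cells, against 7.12, 7.45 and 7.22 in that of untreated cells, and fell by 0.32 ± 0.09 (adjusted p = 0.0245). Eif1b and Eif5a2 were the members that fell in both fractions. The Eif5a2 call in cytoplasmic RNA was lost without cytoplasmic 4EGI-1 array 2 or cytoplasmic untreated array 2, and with array weights (-0.16, adjusted p = 0.0878). In a fit of the 6 cytoplasmic arrays alone, neither Eif1b (adjusted p = 0.0671) nor Eif5a2 (adjusted p = 0.117) passed.

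Eif2s2 encodes the β subunit of eIF2. Its cytoplasmic values were 11.65, 11.71 and 11.60 in 4EGI-1 cells, against 11.40, 11.55 and 11.18 in untreated cells, a rise of 0.28 ± 0.09 (adjusted p = 0.0427) without overlap. Of the 12 fits that each left out 1 array, 2 kept that call: those without cytoplasmic 4EGI-1 array 3 and without cytoplasmic untreated array 2. It was lost too with no filter (adjusted p = 0.0773) and with the 6 cytoplasmic arrays alone (adjusted p = 0.175). The whole count of 3 was 1 without cytoplasmic 4EGI-1 array 2 and 6 without cytoplasmic 4EGI-1 array 3.

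Of the 4 members that rose most and the 4 that fell most in polysomal RNA, Eif1b changed in cytoplasmic RNA as given above, and the other 7 did not pass there. Eif5b had cytoplasmic values of 10.86, 10.83 and 10.67 in 4EGI-1 cells and of 10.63, 10.78 and 10.53 in untreated cells, which overlapped (0.15 ± 0.09, adjusted p = 0.308). Eif3c had 11.65, 11.68 and 11.66 in cytoplasmic RNA of 4EGI-1 cells, against 11.62, 11.54 and 11.40 in untreated cells (0.14 ± 0.08, adjusted p = 0.265). Eif3a had 12.45, 12.43 and 12.47 after 4EGI-1 and 12.39, 12.35 and 12.22 in untreated cells (0.13 ± 0.07, adjusted p = 0.24). For Eif3c and Eif3a the treated arrays lay just above the untreated ones, without passing the test. Eef2 had 12.45, 12.41 and 12.71 in cytoplasmic RNA of 4EGI-1 cells and 12.63, 12.45 and 12.63 in that of untreated cells, and the interval of its difference ran from -0.24 to 0.14. Eef1akmt1 had 8.18, 8.11 and 7.82 in 4EGI-1 cells, against 8.09, 8.40 and 8.41 in untreated cells, with overlap and a difference of -0.26 ± 0.11 (adjusted p = 0.1). Eef1akmt2 (9.42, 9.28 and 9.22 with 4EGI-1, against 9.19, 9.50 and 9.34 without) and Eef1e1 (10.58, 10.68 and 10.41 with 4EGI-1, against 10.28, 10.64 and 10.49 without) overlapped as well.

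Among the members that moved little in either fraction, Eif5 had cytoplasmic values of 11.97, 11.90 and 11.80 in 4EGI-1 cells and of 11.79, 11.85 and 11.74 in untreated cells. Eif6 had 8.69, 8.54 and 8.96 in 4EGI-1 cells, against 8.83, 8.56 and 8.87 in untreated cells. Both sets of arrays overlapped and neither difference passed. Eif5a, by contrast, spread widely, with 10.93, 10.67 and 11.48 in cytoplasmic RNA of 4EGI-1 cells and 11.41, 11.05 and 11.81 in that of untreated cells. In both groups array 3 was the highest and array 2 the lowest. The difference of -0.39 ± 0.18, the most negative of the 39 members in cytoplasmic RNA, did not pass (adjusted p = 0.161). It passed without cytoplasmic 4EGI-1 array 3, without cytoplasmic untreated array 2 and with array weights (-0.47, adjusted p = 0.00183). These Eif5a values are of its brighter probe set, and the other one changed by -0.13 ± 0.10 in cytoplasmic RNA.

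Whether the effect of 4EGI-1 differed between the fractions was tested as the polysomal change minus the cytoplasmic change. Eif5b, Eef2, Eif3c and Eif3a passed, all with the more positive change in polysomal RNA. They make up 10.3% of the members, against 2.31% of all genes that passed in this direction, 0.607% in the other and 2.92% in all. The members' median was -0.00 and that of all genes -0.01. The difference of changes was 0.74 ± 0.13 for Eif5b (adjusted p = 0.0047), 0.63 ± 0.13 for Eef2 (adjusted p = 0.0128) and 0.61 ± 0.12 for Eif3c (adjusted p = 0.00917). For Eif3a it was 0.45 ± 0.10 (adjusted p = 0.0237), and 3 of the 12 fits that left out 1 array kept that call: those without cytoplasmic 4EGI-1 array 3, cytoplasmic untreated array 2 or cytoplasmic untreated array 3. With no filter it did not pass (adjusted p = 0.0602). Eif3d, with 0.20 ± 0.10, did not pass (adjusted p = 0.419). The most negative differences were those of Eef1akmt1 (-0.52 ± 0.15, adjusted p = 0.0856), Eef1e1 (-0.45 ± 0.14, adjusted p = 0.119) and Eef1akmt2 (-0.40 ± 0.12, adjusted p = 0.12). Without cytoplasmic untreated array 2, these 3 passed too, and the count of members was 7. Without cytoplasmic 4EGI-1 array 3, Eef1akmt1 and Eef1e1 passed.

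Polysomal and cytoplasmic RNA were compared next within each treatment. In 4EGI-1 cells 6 of the 39 members differed, 4 higher and 2 lower in polysomal RNA. That is 15.4% of the members, against 16.7% of all genes tested (9.56% higher and 7.15% lower), and the median difference was 0.05 for the members and -0.01 for all genes. With each array centred on its median, 11 were higher and 1 was lower there, of which 5 were shared with the 6. In untreated cells 19 members differed, 12 higher and 7 lower, or 48.7%, against 29.0% of all genes. Among the members 30.8% were higher in untreated cells, against 16.7% of all genes, and 17.9% were lower, against 12.2%. The median there was 0.10 for the members and -0.02 for all genes. Whether these counts differ between the treatments was not tested beyond the test of each gene's change given above. These comparisons use the same arrays as the treatment comparisons, so the changes of Eif5b, Eef2, Eif3a and Eif3c with 4EGI-1 and their low polysomal values without it are not separate evidence.

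**Figure D4:**
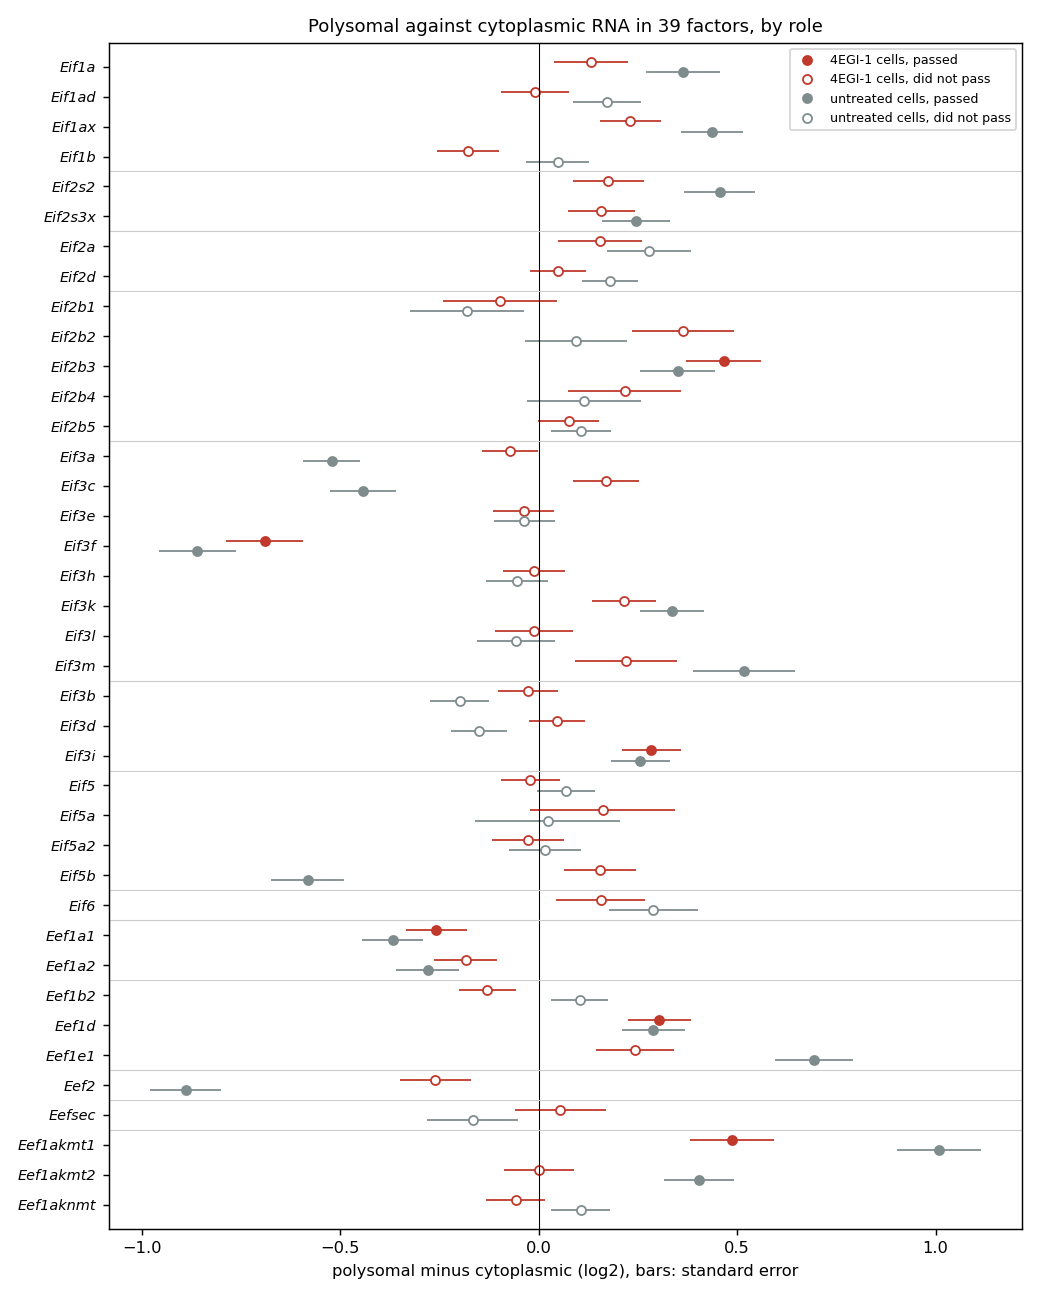
Polysomal minus cytoplasmic RNA on the log2 scale (horizontal axis) for the 39 tested factors, grouped by role, in 4EGI-1 cells (red) and untreated cells (grey). Points are limma estimates over 3 arrays a group, bars are standard errors, and filled points passed the test; Eif3f lies furthest to the left in 4EGI-1 cells, at -0.69, and Eef2 in untreated cells, at -0.89.

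In untreated cells the members with the lowest polysomal values relative to cytoplasm were Eef2, Eif3f, Eif5b and Eif3a. The polysomal minus cytoplasmic difference of Eef2 was -0.26 ± 0.09 in 4EGI-1 cells, where it did not pass (adjusted p = 0.0602), and -0.89 ± 0.09 in untreated cells, with every untreated polysomal array below every cytoplasmic one. In 4EGI-1 cells it passed without cytoplasmic 4EGI-1 array 2 or cytoplasmic untreated array 2, and under several other settings, with adjusted p of 0.0202 (intensity trend) to 0.0437 (quantile normalization within each fraction). Eif5b differed by 0.16 ± 0.09 in 4EGI-1 cells, without passing, and by -0.58 ± 0.09 in untreated cells. Eif3a differed by -0.07 ± 0.07 in 4EGI-1 cells, without passing, and by -0.52 ± 0.07 in untreated cells. Eif3c differed by 0.17 ± 0.08 in 4EGI-1 cells (adjusted p = 0.182) and passed in untreated cells, at -0.44 ± 0.08. In 4EGI-1 cells Eif3c passed as higher with each array centred on its median (0.27, adjusted p = 0.038) and with array weights (adjusted p = 0.0416).

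Eif3f, Eef1a1, Eif2b3, Eef1d, Eif3i and Eef1akmt1 differed between the fractions with and without 4EGI-1. Eif3f, a core eIF3 subunit of the MPN domain family, had 10.54, 10.60 and 10.63 in polysomal RNA and 11.23, 11.22 and 11.39 in cytoplasmic RNA of 4EGI-1 cells. In untreated cells it had 10.62, 10.37 and 10.55 in polysomal RNA and 11.35, 11.21 and 11.55 in cytoplasmic RNA. The fractions did not overlap under either treatment, with differences of -0.69 ± 0.10 in 4EGI-1 cells (adjusted p = 0.00044) and -0.86 ± 0.10 in untreated cells. Eef1a1 had cytoplasmic values of 13.44, 13.27 and 13.39 in 4EGI-1 cells and of 13.39, 13.43 and 13.59 in untreated cells, all above its polysomal values. The difference was -0.26 ± 0.08 in 4EGI-1 cells (adjusted p = 0.033) and -0.37 ± 0.08 in untreated cells. The Eef1a1 call in 4EGI-1 cells was lost without any polysomal 4EGI-1 array and without cytoplasmic 4EGI-1 array 1 or 3. It was lost too with each array centred on its median, where the difference was -0.16 (adjusted p = 0.236), with no filter (adjusted p = 0.0632) and with the 6 arrays of 4EGI-1 cells alone (adjusted p = 0.0536). Eef1a2, the eEF1A gene of muscle and nerve, was also lower in polysomal RNA of untreated cells (-0.28 ± 0.08), and that call was lost without polysomal untreated array 3, with quantile normalization of all arrays (adjusted p = 0.0591) and with each array centred on its median (adjusted p = 0.0809). Its probe set was dim, with a mean of 6.83 over the 12 arrays against a filter at 6.003.

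Eef1akmt1 was higher in polysomal RNA by 0.49 ± 0.11 in 4EGI-1 cells (adjusted p = 0.0066) and by 1.01 ± 0.11 in untreated cells, the largest positive difference among the 39 members in each. Eif2b3, the γ subunit of eIF2B, had 10.37, 10.26 and 10.36 in polysomal RNA and 10.00, 9.94 and 9.65 in cytoplasmic RNA of 4EGI-1 cells. In untreated cells it had 10.23, 10.10 and 10.18 in polysomal RNA and 9.71, 9.88 and 9.87 in cytoplasmic RNA. Its polysomal values were higher by 0.47 ± 0.09 with 4EGI-1 (adjusted p = 0.00448) and by 0.35 ± 0.09 without, a call that was lost without cytoplasmic untreated array 1 or polysomal untreated array 1. Eef1d, the δ exchange subunit of eEF1B, had 11.42, 11.52 and 11.52 in polysomal RNA and 11.25, 11.18 and 11.12 in cytoplasmic RNA of 4EGI-1 cells, against 11.64, 11.62 and 11.44 in polysomal RNA and 11.20, 11.34 and 11.29 in cytoplasmic RNA of untreated cells. Eif3i had 11.88, 11.78 and 11.83 in polysomal RNA and 11.54, 11.54 and 11.55 in cytoplasmic RNA of 4EGI-1 cells, against 12.00, 11.82 and 11.87 in polysomal RNA and 11.67, 11.67 and 11.58 in cytoplasmic RNA of untreated cells. The polysomal arrays of both genes stood above the cytoplasmic ones under either treatment, by 0.30 ± 0.08 for Eef1d and 0.28 ± 0.07 for Eif3i in 4EGI-1 cells. The 4EGI-1 call of Eef1d was lost without polysomal 4EGI-1 array 2 or 3 or cytoplasmic 4EGI-1 array 3, and that of Eif3i without polysomal 4EGI-1 array 1 or 3. In untreated cells the Eef1d call was lost without cytoplasmic array 1 or polysomal array 1 or 2, and that of Eif3i without polysomal array 1 or with the 6 arrays of untreated cells alone (adjusted p = 0.0508). The count of 6 members in 4EGI-1 cells was 3 without polysomal 4EGI-1 array 3.

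The other members that were higher in polysomal RNA of untreated cells included subunits of eIF2 and eIF3 and both eIF1A genes. Eef1e1 stood 0.69 ± 0.10 above cytoplasmic RNA. Eif3m had 12.23, 12.21 and 12.10 in polysomal RNA and 11.60, 11.92 and 11.47 in cytoplasmic RNA of untreated cells, a difference of 0.52 ± 0.13 (adjusted p = 0.00694). Eif2s2 had 11.91, 11.82 and 11.78 in polysomal RNA, against the cytoplasmic values given above, a difference of 0.46 ± 0.09. Eif1ax (0.44 ± 0.08), Eef1akmt2 (0.40 ± 0.09), Eif1a (0.36 ± 0.09), Eif3k (0.34 ± 0.08) and Eif2s3x (0.25 ± 0.08) completed the set. In 4EGI-1 cells the differences of these 8 lay between 0.00 (Eef1akmt2) and 0.24 (Eef1e1) and did not pass, but none of the 8 passed the test of the change between treatments either. The Eif2s3x call was lost in 8 of the 12 fits that left out 1 array, with no filter (adjusted p = 0.0756), with quantile normalization within each fraction (adjusted p = 0.0668) and with the 6 arrays of untreated cells alone (adjusted p = 0.0882). Eif1ax in 4EGI-1 cells (adjusted p = 0.0528) passed without cytoplasmic untreated array 2 or 3 and, with each array centred on its median, at 0.33 (adjusted p = 0.00616).

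Of 8 members known to carry a TOP tract, 7 were tested, and Eef1g was not analysed here. The list was set from known TOP mRNAs and not from the start windows. Of its 4 members with a RefSeq promoter entry, 3 held a pyrimidine run and Eef1b2 did not. Members not on the list held runs too, the longest, of 16 bases, in Eif2s3x. In polysomal RNA, Eef2 rose and Eef1b2 fell with 4EGI-1, while Eef1a1, Eef1d, Eif3e, Eif3f and Eif3h did not pass. That is 28.6% called, against 25.2% of all genes. None of the 7 passed in cytoplasmic RNA, against 17.8% of all genes. Between the fractions of 4EGI-1 cells, Eef1d was higher and Eif3f and Eef1a1 were lower in polysomal RNA. In untreated cells Eef1d was higher and Eef2, Eif3f and Eef1a1 were lower. The called TOP members thus went both ways in each fraction comparison, with more of them lower in polysomal RNA. In 4EGI-1 cells 14.3% were higher and 28.6% lower, against 9.56% and 7.15% of all genes, and 6 of the 7 differences were negative (median -0.13). For untreated cells the shares were 14.3% higher and 42.9% lower, against 16.7% and 12.2% of all genes, with 5 of the 7 negative (median -0.05).

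For the other genes of the pathway, counts were taken from the same fit. The list of eIF4 factors held 11 genes, among them the poly(A)-binding protein gene Pabpc1, and did not hold Eif4g1. Of these 11, 1 was higher and 3 were lower in polysomal RNA after 4EGI-1 (median -0.06), and 1 was lower in cytoplasmic RNA (median -0.08). These are 36.4% called in polysomal RNA, against 25.2% of all genes, and 9.09% in cytoplasmic RNA, against 17.8%. Eif4g3, an eIF4G scaffold paralog, was 0.62 ± 0.10 higher in polysomal RNA (adjusted p = 0.000439) and passed the test of the change between fractions (0.62 ± 0.15, adjusted p = 0.033). Eif4e2, a cap-binding paralog linked to repression, changed by -0.79 ± 0.10 in polysomal RNA and by -0.50 ± 0.10 in cytoplasmic RNA. Of 7 eIF2 kinases, eIF2 phosphatase subunits and the eEF2 kinase, 2 were higher in polysomal RNA and 2 were higher and 1 lower in cytoplasmic RNA, or 28.6% (25.2% of all genes) and 42.9% (17.8% of all genes). Eif2ak3, the kinase of the unfolded protein response, was higher by 0.77 ± 0.10 in polysomal RNA and by 0.73 ± 0.10 in cytoplasmic RNA. Ppp1r15a, the stress-induced subunit that directs a phosphatase to eIF2, was higher by 0.68 ± 0.08 in polysomal RNA and by 0.53 ± 0.08 in cytoplasmic RNA.

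Of 9 enzymes that modify eIF5A or eEF2 by hypusine, diphthamide or lysine methylation, 8 were tested, with 1 higher and 1 lower in polysomal RNA and 2 higher in cytoplasmic RNA. That is 25% in each, against 25.2% and 17.8% of all genes. The diphthamide gene Dph7 was higher by 0.50 ± 0.09 in polysomal RNA, and the hypusine gene Dohh changed by -0.49 ± 0.14 there. None of the 8 passed the test of the change between fractions. Of 10 termination, recycling and rescue factors, 9 were tested, with 4 lower in polysomal RNA (44.4%, against 12.1% of all genes) and 2 lower in cytoplasmic RNA (22.2%, against 7.79%). Mcts2, a paralog of the reinitiation factor gene Mcts1, changed by -0.84 ± 0.16 in polysomal RNA and by -1.06 ± 0.16 in cytoplasmic RNA. Etf1, the release factor, changed by -0.29 ± 0.07 in polysomal RNA, and Denr, which acts in recycling and reinitiation, by -0.36 ± 0.10. Of 9 mitochondrial translation factors, 4 were higher in polysomal RNA and 4 in cytoplasmic RNA, 44.4% in each, against 13.0% and 10.1% of all genes. Gfm2, the mitochondrial recycling factor, was higher by 0.62 ± 0.08 in polysomal RNA. Mtif2, the mitochondrial initiation factor, was higher by 0.34 ± 0.10 in polysomal RNA and by 0.60 ± 0.10 in cytoplasmic RNA. None of these 9 passed the test of the change between fractions.

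Eif2s2, Eif3m and Eif5a each had another, dimmer probe set, and these genes have processed copies elsewhere in the genome, so which transcripts each probe set measured was not tested. The other probe set of Eif2s2 also rose in cytoplasmic RNA (0.44 ± 0.12, adjusted p = 0.0204) and did not pass in polysomal RNA. The other probe set of Eif3m passed between the fractions of 4EGI-1 cells as well (0.42 ± 0.09, adjusted p = 0.0078), where the brighter one did not (0.22 ± 0.13, adjusted p = 0.267). The probe sets of Eif5a had like polysomal changes, -0.25 ± 0.18 for the brighter and -0.23 ± 0.10 for the other, and neither passed in the fit of all arrays. In cytoplasmic RNA they differed more, with -0.39 ± 0.18 for the brighter and -0.13 ± 0.10 (adjusted p = 0.381) for the other. The cytoplasmic SD of the other was 0.13 in 4EGI-1 cells and 0.20 in untreated cells, against 0.41 and 0.38 for the brighter.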

How the data were processed

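RNA of the 12 samples was amplified, labelled with biotin and hybridised to 1-colour arrays, per the labels' protocols. The authors deposited log2 expression values per probe set, made with RMA, per the submitters' processing notes; for the RMA version and its background step, the sources used here give no detail. Probe sets were named from the platform annotation, updated by Entrez number through a RefSeq table (GRCm38.p6): 21640 carried 1 symbol, 1321 several and 11799 none, and 19855 symbols were found by Entrez number. Per gene the probe set with the highest mean was kept, and 6757 genes below the 40th percentile of probe-set means were left out. limma 3.58.1 in R 4.3.3 was fitted to the group means of all 12 arrays (lmFit, eBayes without trend, 6.83 prior degrees of freedom), with Benjamini-Hochberg adjustment over 13180 genes and a threshold of 0.05. The steps were tested on simulated data. Of genes given a log2 difference of 0.5 there, 22.7% were recovered for the change between fractions. The other comparisons recovered 67.7% to 72%. At a log2 difference of 1 the shares were 87.4% for the change between fractions and 95.9% to 100% for the others. The simulation gave all groups of a gene the same spread and changed few genes, in a single group. In the data cytoplasmic arrays varied more than polysomal ones and many more genes were called, so these shares need not hold there. For members that did not pass for the change between fractions, absence of a difference was not tested. Values in every array are given for Eif5, Eif5a, Eif5b, Eif3a, Eif6, Eef1a1 and Eef2 and, per comparison, for up to 4 called members with the largest change each way; of the other gene lists, examples are from the 3 smallest p-values each. The members and lists were chosen with earlier results of these data known. Alternatives were another filter, scaling, weights, trend, fewer arrays, other probe sets, a replicate block and leaving out each array. Replicate numbers were not used as pairs in the reported fit and were tried as a block among the alternatives. Deviations of same-numbered polysomal and cytoplasmic arrays from their group means correlated at 0.0187 to 0.228 in 4EGI-1 cells and 0.0199 to 0.141 in untreated cells. Those of the cytoplasmic groups correlated at -0.216, 0.562 and 0.516 for numbers 1, 2 and 3, and those of the polysomal groups at -0.055 to 0.163.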

Additional observations from a re-analysis of the deposited data

Results flagged for a closer look

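The effect of 4EGI-1 differed between polysomal and cytoplasmic RNA for 4 members, by limma's test of the difference itself. The polysomal change exceeded the cytoplasmic change by 0.74 for Eif5b, by 0.63 for Eef2, by 0.61 for Eif3c and by 0.45 for Eif3a on the log2 scale. In each case every polysomal 4EGI-1 array lay above every polysomal untreated array, and in cytoplasmic RNA none of the 4 genes passed. Cytoplasmic arrays varied more between replicates, with a median SD of 0.121 in 4EGI-1 cells and 0.133 in untreated cells, against 0.0761 and 0.0745 in polysomal RNA of the same treatments, and the part of this spread in the result was not tested.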

How the results depend on the processing

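Of 4641 values of single members recomputed under 12 other settings and 12 fits without 1 array, 4454 kept direction and call, 82 lost the call, 105 gained it and 0 changed the direction of a called value. With array weights, which gave cytoplasmic 4EGI-1 arrays weights of 0.281 to 3.83, 12 members were called in cytoplasmic RNA (42.2% of all genes), 11 for the change between fractions, 4 of them positive (21.5% of all genes), and 17 between the fractions of 4EGI-1 cells, 12 higher and 5 lower (35.4% of all genes). With each array centred on its median, 12 were called between the fractions of 4EGI-1 cells, 11 higher and 1 lower (20% of all genes), against 4 higher and 2 lower as reported. With the 6 cytoplasmic arrays alone, limma called 0 members (8.35% of all genes), with 4 at an unadjusted p under 0.05. In polysomal RNA 16 members were called, 5 higher and 11 lower, with the 6 polysomal arrays alone (38.2% of all genes) and with array weights (39.2% of all genes). Both of these settings added Eif1a, Eif2d, Eif3k and Eif5a, all as lower. The causes were not tested. Leaving out 1 array gave 9 to 12 members in polysomal RNA, 1 to 6 in cytoplasmic RNA, 3 to 7 for the change between fractions, 3 to 9 between the fractions of 4EGI-1 cells and 15 to 21 between those of untreated cells. With the replicate number as a block, 12, 4, 4, 9 and 21 members were called in the same order. A random block that took same-numbered arrays of a treatment as 1 culture (correlation 0.0895) gave 12, 3, 4, 8 and 20. The sample titles number the arrays and do not state that these share a culture. Between the fractions of 4EGI-1 cells, Eef2 (adjusted p = 0.0306 and 0.043) and Eif1ax (0.0496 and 0.0399) passed with these blocks. There Eif2b2 (0.36 ± 0.13, adjusted p = 0.0672 in the reported fit) passed with the number as a block (0.037) and not with the random block. It also passed with quantile normalization of all arrays (0.0493) or within fractions (0.0335), median centring (0.0382) and array weights (0.0108), but not under every alternative. Within each treatment, 10 of the 12 arrays correlated best with the same-numbered array of the other fraction. Each pair enters that count from both sides, and the correlations of same-numbered arrays were low, at 0.0187 to 0.228. The count is a hint from the data and not from the design. Eif5b, Eif3c, Eif3a, Eef2, Eif3d, Eef1akmt1, Eif1b, Eef1akmt2 and Eif5a2 kept their polysomal calls, and Eif5b, Eif3c and Eef2 their calls of a change between fractions, under every alternative run. Without the filter the adjusted p of Eif3a for that change was 0.0602. The other probe sets of Eif2s2, Eif3m and Eif5a were added as an alternative after the data were seen. Dim probe sets, those of Eif5a2 and Eef1a2 among them, could not be judged against background in these summarised values.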
